A study of Mus musculus with 16 samples.

Results

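Genes of the circadian clock were read in RNA sequencing libraries of mouse brain. The 10 genes were Arntl, Per1, Per2, Per3, Nr1d1, Nr1d2, Ciart, Bhlhe41, Dbp and Tef, each taken by its gene name from a table of 54532 entries, and all 10 passed the filter on low counts that left 17736 genes for testing. The 16 libraries came from female mice of 9 months and formed 4 groups of 4. Mice with the gene Ch25h made up the groups Ch25h+/+ Tau- and Ch25h+/+ Tau+, and those without it the groups Ch25h-/- Tau- and Ch25h-/- Tau+. Ch25h encodes the cholesterol hydroxylase that makes 25-hydroxycholesterol, an oxysterol. Tau+ and Tau- give the tau status, and the labels name neither the tau transgene nor its promoter nor the mouse strain. The hour at which tissue was taken is not given in the labels. The comparison therefore asks whether the clock genes, whose RNA follows the time of day, differed between the groups or between single libraries.

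The clock is a feedback loop of transcription. Arntl, also called Bmal1, pairs with Clock, and the pair binds E-boxes and switches on the period genes, the nuclear receptors Nr1d1 and Nr1d2 (Rev-erb alpha and beta), the repressors Ciart and Bhlhe41, and Dbp. The period proteins repress this pair, the Nr1d proteins repress Arntl through ROR elements, and Dbp and Tef act on D-boxes. Arntl RNA thus peaks at a time of day far from that of Dbp and Nr1d1. In the cortex, as in other tissue outside the suprachiasmatic nucleus, the loop runs with a phase set by signals from that nucleus, and Per1 and Per2 also answer neuronal activity and glucocorticoids.

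The binding sequences of this loop stand in the promoters of several of these genes, and they are shown because they connect the members to the activator, the Nr1d receptors or the D-box proteins. RefSeq windows (GRCm38.p6) from 250 bases before to 50 bases after a start were found for 9 of the 10 genes, in 12 windows, and were searched on both strands for the E-box CACGTG, its variant CACGTT, the D-boxes TTATGTAA and TTACGTAA, the ROR elements TAGGTCA and TGGGTCA, and the CRE TGACGTCA. The searched letters do not overlap in the stretches below, where capitals mark each match and the gene's own strand is read 5′ to 3′.
Ciart (chr3:95882247-95882364, minus strand, E-boxes): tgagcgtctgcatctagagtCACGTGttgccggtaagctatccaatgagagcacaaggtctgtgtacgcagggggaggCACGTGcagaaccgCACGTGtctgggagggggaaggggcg
Per3 (chr4:151044796-151044890, minus strand, D-boxes): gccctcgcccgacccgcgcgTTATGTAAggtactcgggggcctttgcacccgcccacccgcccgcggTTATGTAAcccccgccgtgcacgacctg
Per1 (chr11:69098763-69098808, plus strand, E-box): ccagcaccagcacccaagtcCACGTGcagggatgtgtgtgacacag
Bhlhe41 (chr6:145865548-145865593, minus strand, E-box): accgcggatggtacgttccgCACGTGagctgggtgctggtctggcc
Tef (chr15:81811256-81811301, plus strand, E-box, the second of its starts): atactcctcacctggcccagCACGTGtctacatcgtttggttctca
Nr1d1 (chr11:98775380-98775425, minus strand, E-box variant): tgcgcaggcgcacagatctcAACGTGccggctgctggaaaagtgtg
Arntl (chr7:113207530-113207559, plus strand, ROR element, the second of its starts): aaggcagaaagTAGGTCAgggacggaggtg

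Ciart held 3 E-boxes, at 116, 58 and 44 bases before its start, and 0.0883% of the 32851 promoter windows of all genes held as many. Per3 held 2 copies of TTATGTAA, as did 0.0213% of all windows. At least 1 CACGTG stood in 5 of the 12 windows, starts 1 and 2 of Tef among them, against 7.15% of all windows. CACGTT stood in 1 of the 12 (4.68% of all windows), TTATGTAA in 1 (0.938%) and TAGGTCA in 1 (2.61%). TTACGTAA (0.119% of all windows), TGGGTCA (3.98%) and the CRE (1.79%) stood in 0 of the 12. The windows of Dbp and Nr1d2 held none of these letters, which says nothing of regions outside them. A match is a description of letters and not a measured binding site.

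Depth was 15530352 to 25602500 counts per library. Ch25h had 5 to 30 counts in the Ch25h+/+ libraries and 0 in all 8 Ch25h-/- libraries, and Prnp, whose promoter drives some tau transgenes, was at 708 to 839 CPM (counts scaled to library size) in Tau- and 1414 to 1935 CPM in Tau+ libraries. The labels name frontal cortex and the series text names hippocampus. The 8 cortex markers, all detected, summed to 912 to 1148 CPM and the 8 hippocampus markers to 263 to 435 CPM. Markers of the hypothalamus and the suprachiasmatic nucleus summed to 31.8 to 56.1 CPM, of which Vip, also made by cortical interneurons, gave 28.9 to 51.2 CPM. Avp and Six6, which mark the suprachiasmatic nucleus, reached at most 3.26 and 0.482 CPM. An entry for ribosomal RNA (CT010467.1) lay above 1000 CPM of total counts in 7 of the 8 Ch25h-/- libraries, called rRNA-rich here, and at 111 to 475 in the other 9, of which Ch25h-/- Tau+ replicate 1 is the Ch25h-/- library. Library class and Ch25h genotype are thus nearly the same split, and with bulk tissue fewer cells of a type and less RNA per cell cannot be told apart. Only Ch25h-/- Tau+ holds both classes, so a covariate for class rests on its replicate 1 and cannot separate class from genotype.

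Per kilobase of the longest transcript, mean levels over the 16 libraries ran from 100.5 CPM per kb for Tef, through Nr1d1 (64.7), Dbp (53.3), Per1 (36.01), Nr1d2 (25.01), Per3 (10.3), Ciart (9.52), Arntl (9.07) and Per2 (8.52), to 7.001 for Bhlhe41. The lowest count of a clock gene in any library was 207, for Ciart. Levels below are CPM on library sizes scaled by the TMM method, in the order of replicates 1 to 4, which pair no libraries between groups. The labels do not say that each library is a separate mouse, and p-values measure the spread between these libraries.

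**Figure D1:**
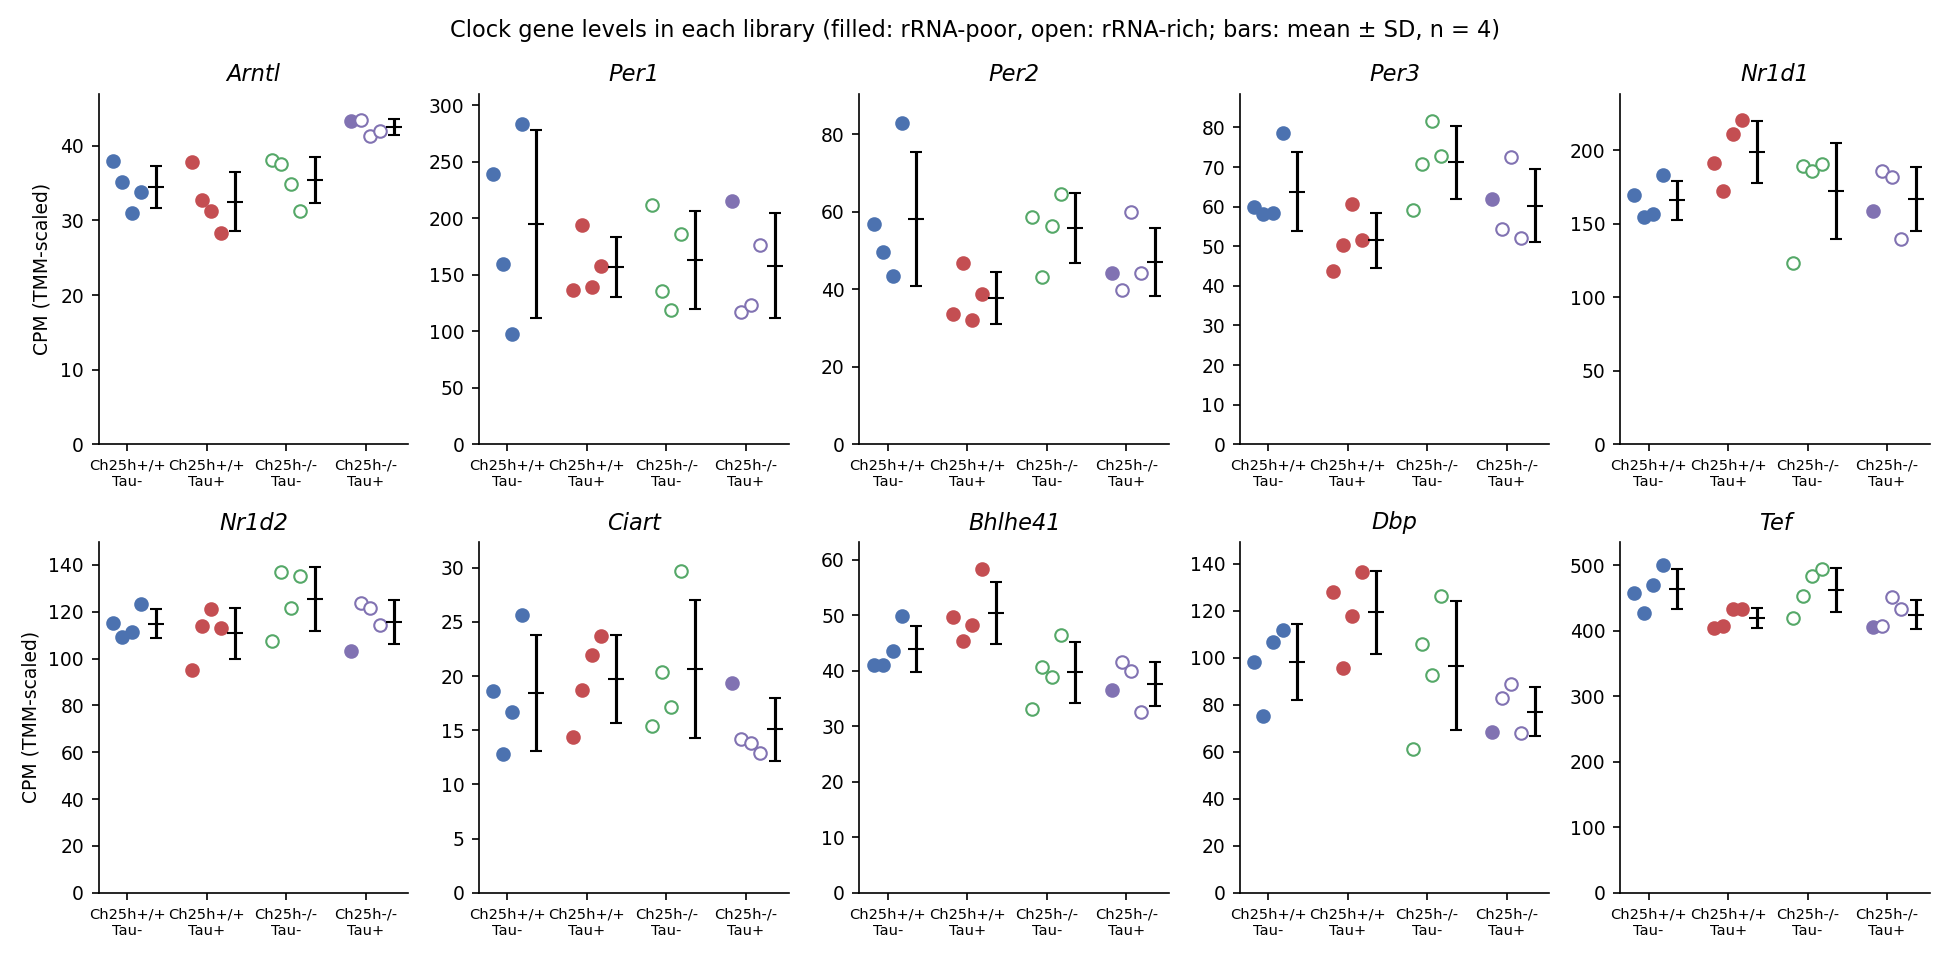
Level of each clock gene (y axis, TMM-scaled CPM from 0) in every library by group, with filled points for rRNA-poor and open points for rRNA-rich libraries and bars for mean ± SD (n = 4). The 4 Ch25h-/- Tau+ points of Arntl lie at 41.3 to 43.5 CPM, above the other 12 libraries, while Per1 spans 97.3 to 283 CPM within Ch25h+/+ Tau-.

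Differences between groups were few. Past an adjusted p of 0.05 (edgeR quasi-likelihood test, Benjamini-Hochberg over all genes), 0 of the 10 genes differed with tau in Ch25h+/+, where 1.56% of all genes tested passed. With tau in Ch25h-/- 0 of 10 passed (0.0395% of all genes), with Ch25h loss in Tau- 0 (1.03%), for the interaction 0 (0.0338%) and for the mean tau effect 0 (0.857%). Ch25h loss in Tau+ gave 2 of 10, Arntl higher and Bhlhe41 lower, where 3.55% of all genes passed (1.14% higher, 2.4% lower). The mean effect of Ch25h loss over both tau states gave the same 2 genes, against a background of 20.3% (9.55% higher, 10.8% lower). At an unadjusted p under 0.05, the edgeR counts were 2 for tau in Ch25h+/+ (9.38% of all genes), 1 for tau in Ch25h-/- (3.68%), 0 for Ch25h loss in Tau- (20.9%), 3 for Ch25h loss in Tau+ (23.9%), 2 for the interaction (4.13%), 3 for the mean tau effect (9.85%) and 4 for the mean effect of Ch25h loss (35.1%). The libraries of the groups compared did not overlap for 0 of 10 clock genes with tau in Ch25h+/+ (5.86% of all genes), 1 with tau in Ch25h-/- (2.14%), 0 with Ch25h loss in Tau- (16.2%) and 3 with Ch25h loss in Tau+ (10.2%). DESeq2 called Per2 for tau in Ch25h+/+ and for the mean tau effect, and made 0 calls among the 10 genes in the other comparisons where edgeR made 0.

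The members moved to both sides in each comparison. The median log2 fold change of the 10 genes was -0.07 for tau in Ch25h+/+, -0.12 for tau in Ch25h-/-, 0.02 for Ch25h loss in Tau- and 0.01 for Ch25h loss in Tau+, with 4, 1, 5 and 6 of 10 above 0. Medians over all genes tested lay between -0.01 and 0.01. The median absolute log2 fold change of the members was 0.23 for tau in Ch25h+/+ (0.10 for all genes), 0.18 for tau in Ch25h-/- (0.09), 0.28 for Ch25h loss in Tau+ (0.18) and 0.09 for Ch25h loss in Tau- (0.17). It was 0.29 for the interaction (0.12), 0.12 for the mean tau effect (0.08) and 0.12 for the mean effect of Ch25h loss (0.16).

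**Figure D2:**
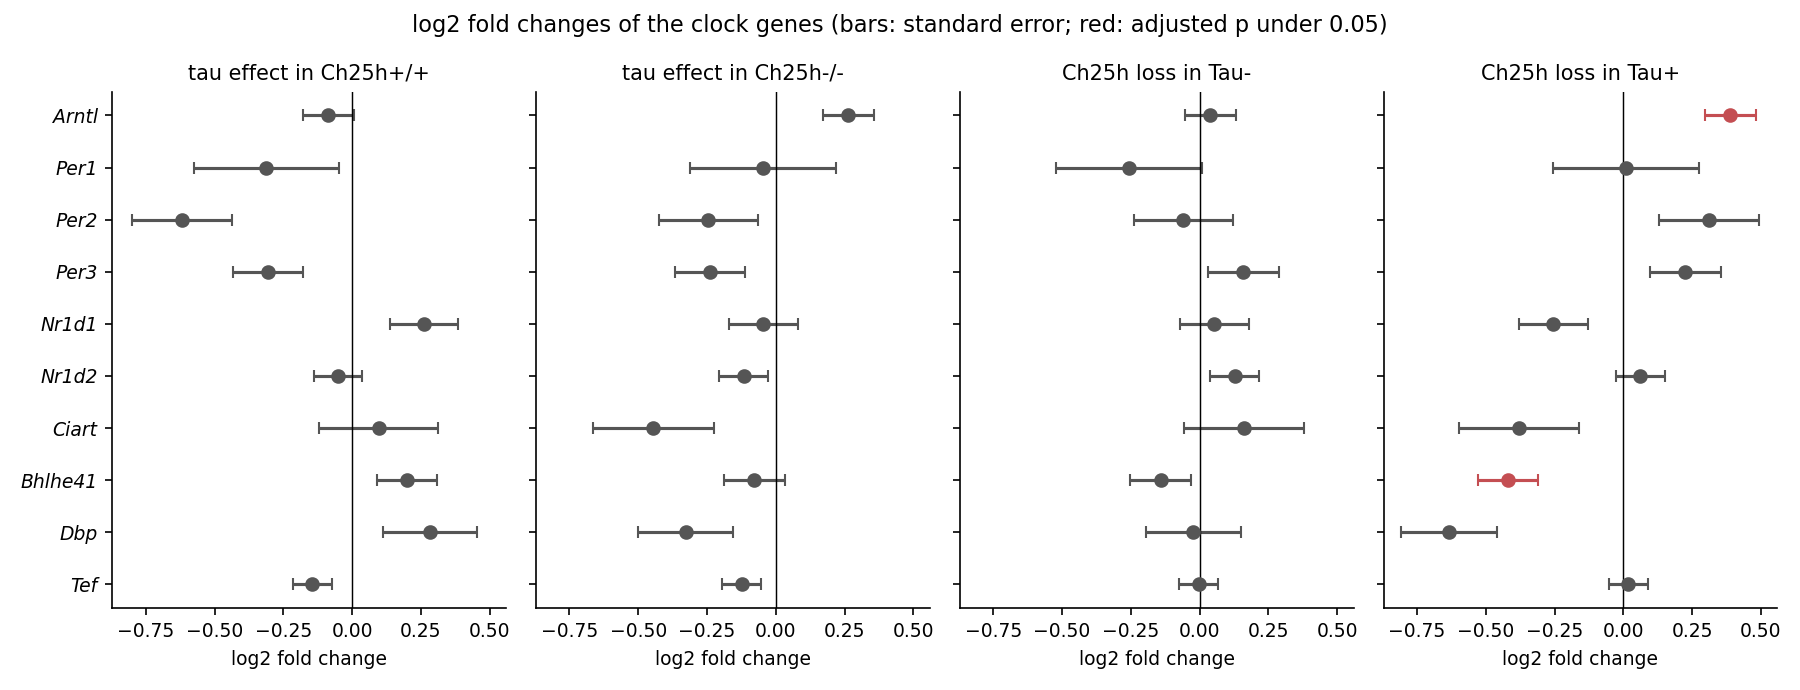
Log2 fold changes of the 10 clock genes (x axis) in 4 comparisons, with standard errors as bars and red points for an adjusted p under 0.05 in the edgeR test. Red points stand in the panel of Ch25h loss in Tau+ alone, for Arntl (0.39) and Bhlhe41 (-0.42), and Dbp has the lowest value there (-0.63).

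Arntl (chr7:113207465-113314126, plus strand), the activator, was higher in Ch25h-/- Tau+ than in any other group. Its CPM in single libraries was 37.9, 35.2, 31.1 and 33.8 in Ch25h+/+ Tau-, and 37.8, 32.7, 31.3 and 28.3 in Ch25h+/+ Tau+. In Ch25h-/- it was 38.1, 37.5, 34.8 and 31.3 in Tau- and 43.3, 43.5, 41.3 and 42.0 in Tau+. The Ch25h-/- Tau+ libraries overlapped with no library of the other groups, whereas those 3 groups overlapped one another. Their lone rRNA-poor library, replicate 1, had 43.3 CPM and the 3 rRNA-rich ones 41.3 to 43.5. Group means were 32.5 ± 3.98 in Ch25h+/+ Tau+ and 42.5 ± 1.07 CPM in Ch25h-/- Tau+ (SD, n = 4). The SD of the latter was 2.51% of its mean, below the counting error of 3.01 to 3.86% that its 670 to 1107 counts give.

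The log2 fold change of Arntl with Ch25h loss in Tau+ was 0.39 (standard error 0.09, edgeR adjusted p 0.0315), a 1.31-fold rise. In Tau- it was 0.04 (standard error 0.09, adjusted p 0.844). The tau effect in Ch25h-/- was 0.26 (unadjusted p 0.0105, edgeR adjusted p 1), with no overlap of the libraries, as in 2.14% of all genes. The tau effect in Ch25h+/+ was -0.09, and the interaction was 0.35 (standard error 0.13, unadjusted p 0.0153), whose edgeR adjusted p of 0.862 did not pass. The mean effect of Ch25h loss was 0.21 (standard error 0.07, adjusted p 0.0293) and kept its call in 9 of the 16 edgeR fits with 1 library omitted. The call was lost without replicate 3 or 4 of either Ch25h+/+ group, replicate 1 or 2 of Ch25h-/- Tau- or replicate 2 of Ch25h-/- Tau+, at 0.18 to 0.21. It was also lost with counts corrected for GC content (0.17, edgeR adjusted p 0.171) and with no filter on low counts (adjusted p 0.0572). With the covariate for library class, which rests on Ch25h-/- Tau+ replicate 1, the mean effect was 0.24 and the Tau+ difference 0.41. The Tau+ call was lost without Ch25h+/+ Tau+ replicate 3 or 4 or without Ch25h-/- Tau+ replicate 2, 3 or 4, at 0.33 to 0.40. The Tau+ call was also lost with the GC correction (0.35, edgeR adjusted p 0.0994) and with only the 8 libraries compared (0.39, adjusted p 0.101).

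Bhlhe41 (chr6:145858243-145865558, minus strand), a basic helix-loop-helix repressor that competes for E-boxes, was lower with Ch25h loss in Tau+. It had 41.1, 41.0, 43.6 and 49.9 CPM in Ch25h+/+ Tau- and 49.7, 45.4, 48.2 and 58.4 CPM in Ch25h+/+ Tau+. In Ch25h-/- it had 33.1, 40.6, 38.8 and 46.5 CPM in Tau- and 36.5, 41.5, 40.1 and 32.6 CPM in Tau+. All 4 Ch25h-/- Tau+ libraries lay below all 4 of Ch25h+/+ Tau+, and the Tau- groups overlapped. Ch25h+/+ Tau+ replicate 4, at 58.4, was the highest of the 16.

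The log2 fold change of Bhlhe41 was -0.42 in Tau+ (standard error 0.11, edgeR adjusted p 0.0429) and -0.14 in Tau- (standard error 0.11, adjusted p 0.478). The interaction was -0.28 (unadjusted p 0.088, edgeR adjusted p 1), so a difference between the tau states was not shown. The mean effect was -0.28 (standard error 0.08, adjusted p 0.0184) and passed in all 16 edgeR fits that each left out 1 library. The call in Tau+ passed in 6 of those 16. It was lost without replicate 1, 2 or 3 of Ch25h+/+ Tau-, replicate 1 or 4 of Ch25h+/+ Tau+, replicate 2 or 3 of Ch25h-/- Tau- and replicate 2, 3 or 4 of Ch25h-/- Tau+, at -0.47 to -0.34 (edgeR adjusted p 0.0505 to 0.147). It was also lost with GC-corrected offsets (-0.47, edgeR adjusted p 0.0578) and with only the 8 libraries compared (adjusted p 0.103). The covariate for library class, which rests on Ch25h-/- Tau+ replicate 1, gave -0.46 in Tau+ and -0.33 for the mean effect. An entry without a common name, Gm43909, overlaps 1280 exonic bases of Bhlhe41 on the other strand at 0.77 to 1.87 CPM, and the use of strand in counting is not given in the sources used here.

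Dbp (chr7:45705088-45710203, plus strand), a transcription factor of the D-box and an output of the loop, fell short of the threshold by little. Its CPM was 98.4, 75.4, 107 and 112 in Ch25h+/+ Tau-, and 128, 95.7, 118 and 137 in Ch25h+/+ Tau+. In Ch25h-/- it was 61.2, 106, 92.9 and 126 in Tau- and 68.6, 82.9, 88.7 and 68.0 in Tau+. All 4 Ch25h-/- Tau+ libraries were below the lowest of Ch25h+/+ Tau+, while Ch25h-/- Tau- spanned a range that took in nearly all others.

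For Dbp the log2 fold change with Ch25h loss was -0.63 in Tau+ (standard error 0.17, edgeR adjusted p 0.0506) and -0.02 in Tau- (standard error 0.17, adjusted p 0.955), and the interaction was -0.61 (unadjusted p 0.0224, edgeR adjusted p 0.989). DESeq2 put Dbp past the threshold in Tau+ (adjusted p 0.00874), and so did limma-voom (0.0324) and edgeR on only the 8 libraries compared (0.0467), where Arntl and Bhlhe41 did not pass. Correcting the counts of each library for GC content, by offsets, moved the value to -0.38 (edgeR adjusted p 0.301), and Dbp has the highest GC content of the 10 genes, at 61.6%. With the covariate for library class, which rests on Ch25h-/- Tau+ replicate 1, the value was -0.80. Sphk2, on the other strand, overlaps 539 exonic bases of Dbp at 25.3 to 38.9 CPM.

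Arntl, Bhlhe41 and Dbp were thus the 3 clock genes of 10 whose libraries did not overlap between Ch25h-/- Tau+ and Ch25h+/+ Tau+, which held for 10.2% of all genes tested. This comparison and the tau effect in Ch25h+/+ share the Ch25h+/+ Tau+ libraries, so a library high in that group enters both. Astrocyte markers (5 of 5 detected) summed to 1170 to 2282 CPM in Ch25h+/+ Tau+ and reached 931 to 1127 CPM where Tau+ mice lacked Ch25h, against 807 to 1097 in the Tau- groups. Of these, Gfap had the widest range over all libraries, 108 to 1312 CPM. Slc1a3 ranged over 400 to 570 CPM, Gja1 over 131 to 202, Aqp4 over 57.6 to 126 and Aldh1l1 over 55.8 to 80.8. Microglia markers (6 of 6 detected) summed to 324 to 419 CPM in Ch25h+/+ Tau+ and reached 253 to 308 CPM in the Ch25h-/- counterpart. Choroid plexus markers (8 of 8 detected) summed to 35.6 to 2326 and 56.8 to 2793 CPM in these groups. The part of cell makeup and of library class in the clock gene differences was not tested. The fit with the class covariate cannot test it, because its class term rests on Ch25h-/- Tau+ replicate 1.

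The ratio of Dbp to Arntl, from the level of each in the same library, sets an output gene of one phase beside the activator of the other. It was 1.58, 1.90, 2.15 and 1.62 in Ch25h-/- Tau+, and 3.38, 2.93, 3.77 and 4.83 in Ch25h+/+ Tau+. It was 2.59, 2.14, 3.44 and 3.31 in Ch25h+/+ Tau- and 1.61, 2.82, 2.67 and 4.04 in Ch25h-/- Tau-. The Ch25h-/- Tau+ libraries held 4 of the 6 lowest ratios, with Ch25h-/- Tau- replicate 1 and Ch25h+/+ Tau- replicate 2 as the others. The ratio was composed after the values of both genes were seen and is a description.

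The period genes encode the repressors of the loop. Per1 (chr11:69095217-69109960, plus strand) had 239, 159, 97.3 and 283 CPM in Ch25h+/+ Tau- and 137, 194, 139 and 158 CPM in Ch25h+/+ Tau+. It had 212, 136, 118 and 186 CPM in Ch25h-/- Tau- and 215, 117, 123 and 176 CPM in Ch25h-/- Tau+. The lowest and the highest library of all 16 both belonged to Ch25h+/+ Tau-, 2.91-fold apart, and every group overlapped every other. The 4 pairwise log2 fold changes were near or below their standard errors, with -0.31 (standard error 0.26) for tau in Ch25h+/+, -0.05 (0.27) for tau in Ch25h-/-, -0.26 (0.26) for Ch25h loss in Tau- and 0.01 (0.27) for Ch25h loss in Tau+. Per1 had the largest standard errors of the 10 genes.

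Per2 (chr1:91415982-91459324, minus strand), whose protein pairs with the cryptochromes, had the smallest p of the clock genes for tau in Ch25h+/+ and for the mean tau effect. It had 56.7, 49.6, 43.4 and 82.8 CPM in Ch25h+/+ Tau- and 33.6, 46.9, 32.1 and 38.8 CPM in Ch25h+/+ Tau+. In Ch25h-/- it had 58.7, 43.2, 56.3 and 64.6 CPM in Tau- and 44.3, 39.7, 59.9 and 44.2 CPM in Tau+. In Ch25h+/+ 3 of the 4 Tau+ libraries lay below every Tau- library, and Tau- replicate 4 was far above the rest.

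The log2 fold change of Per2 with tau was -0.62 in Ch25h+/+ (standard error 0.18, unadjusted p 0.00313, edgeR adjusted p 0.126) and -0.24 in Ch25h-/- (standard error 0.18, unadjusted p 0.193). The mean tau effect was -0.43 (standard error 0.13, unadjusted p 0.00342, edgeR adjusted p 0.154). DESeq2 gave Per2 an adjusted p of 0.0328 in Ch25h+/+ and 0.047 for the mean. Over the 24 edgeR, DESeq2 and limma-voom settings the value in Ch25h+/+ ranged from -0.74 to -0.40, the latter without Ch25h+/+ Tau- replicate 4 (edgeR adjusted p 0.481).

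Per3 (chr4:151003652-151044665, minus strand) had 59.8, 58.1, 58.4 and 78.6 CPM in Ch25h+/+ Tau- and 43.7, 50.2, 60.6 and 51.4 CPM in Ch25h+/+ Tau+. It had 59.2, 70.8, 81.7 and 72.9 CPM in Ch25h-/- Tau- and 62.0, 54.3, 72.4 and 52.1 CPM in Ch25h-/- Tau+. Within both genotypes the Tau+ libraries tended to the lower side and overlapped with Tau-. The log2 fold change with tau was -0.31 in Ch25h+/+ (standard error 0.13, edgeR adjusted p 0.424), -0.24 in Ch25h-/- (0.13, adjusted p 1) and -0.27 for the mean (0.09, unadjusted p 0.00746, adjusted p 0.231).

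The nuclear receptors of the loop are Nr1d1 and Nr1d2, which repress Arntl. Nr1d1 (chr11:98767932-98775333, minus strand) had 169, 154, 157 and 183 CPM in Ch25h+/+ Tau- and 192, 173, 211 and 220.2 CPM in Ch25h+/+ Tau+. It had 123, 189, 186 and 190.4 CPM in Ch25h-/- Tau- and 159, 186, 182 and 139.8 CPM in Ch25h-/- Tau+. Ch25h-/- Tau- replicate 1 was the lowest of all, and the groups overlapped.

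The log2 fold change of Nr1d1 was 0.26 for tau in Ch25h+/+ (standard error 0.13, edgeR adjusted p 0.533) and -0.25 for Ch25h loss in Tau+ (0.13, adjusted p 0.224). With GC-corrected offsets the latter was -0.09. Nr1d1 shares 263 exonic bases with Thra on the other strand, and Thra stood at 531 to 744 CPM, so reads of the shared bases cannot be told apart without strand. Nr1d2 (chr14:18204054-18239127, minus strand) was steadier and in Ch25h+/+ mice ranged over 109 to 123 CPM with Tau- and 95.1 to 121 CPM with Tau+. Without Ch25h the ranges were 107 to 137 CPM with Tau- and 103 to 124 CPM with Tau+. Its log2 fold changes lay between -0.12 and 0.13 in the 4 pairwise comparisons, with the lowest unadjusted p at 0.169 (edgeR).

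Ciart (chr3:95878503-95882251, minus strand), which encodes a repressor of the Clock and Arntl pair, had the lowest counts. It had 18.7, 12.9, 16.7 and 25.6 CPM in Ch25h+/+ Tau- and 14.4, 18.8, 21.9 and 23.7 CPM in Ch25h+/+ Tau+. It had 15.4, 20.4, 17.1 and 29.7 CPM in Ch25h-/- Tau- and 19.4, 14.2, 13.8 and 12.9 CPM in Ch25h-/- Tau+. In the last group the rRNA-poor library was the high one, and the 3 rRNA-rich libraries lay below all 4 of the other Ch25h-/- group.

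The tau effect on Ciart in Ch25h-/- was -0.45 on the log2 scale (standard error 0.22, unadjusted p 0.0574, edgeR adjusted p 1) and 0.10 in Ch25h+/+ (0.22, adjusted p 0.977). On chromosome 3, where Ciart lies, 5 of 302 genes tested within 10 Mb on either side passed for the mean tau effect (2 higher, 3 lower), or 1.66% against 0.857% of all genes, a difference that was not tested. The nearest was Ctss at 0.352 Mb. The 3 tested neighbours on each side (Gm26594, Mrps21, C920021L13Rik, BC028528, Aph1a and Car14) did not pass, with edgeR adjusted p of 0.691 to 0.984.

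Tef (chr15:81802421-81826863, plus strand), a D-box factor related to Dbp, was the most abundant per kilobase and the steadiest. Its CPM was 458, 427, 469.6 and 501 in Ch25h+/+ Tau-, 405, 407, 434 and 433 in Ch25h+/+ Tau+, 419.9, 454, 483 and 494 in Ch25h-/- Tau-, and 406, 408, 452 and 433 in Ch25h-/- Tau+. The Tau+ libraries lay to the low side in both genotypes and overlapped with Tau-. The log2 fold change with tau was -0.14 in Ch25h+/+ (standard error 0.07, edgeR adjusted p 0.558), -0.12 in Ch25h-/- (0.07, adjusted p 1) and -0.13 for the mean (0.05, unadjusted p 0.0157, adjusted p 0.322).

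Single libraries of 1 group differed more for some clock genes than for others. The SD of log2(CPM + 0.5) within groups, pooled over the 4 groups, was 0.46 for Per1, which is the 95.5th percentile of all genes tested. It was 0.35 for Ciart (86.0th percentile), 0.29 for Dbp (76.6th), 0.29 for Per2 (76.3rd), 0.21 for Nr1d1 (54.7th) and 0.20 for Per3 (53.7th). It was 0.16 for Bhlhe41 (39.7th), 0.13 for Nr1d2 (percentile 25.01), 0.12 for Arntl (21.5th) and 0.085 for Tef (4.87th), and the median over the 10 genes was the 54.2nd percentile.

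Spread falls as the mean level rises, so each gene was also ranked among the genes within 0.5 of its mean log2 CPM, a setting added after seeing the data. Per1 then stood at the 99.4th percentile of 1190 genes, Dbp at the 97.9th of 1900, Per2 at the 96.9th of 2591 and Ciart at the 94.8th of 2456. Arntl stood at the 37.4th and Tef at the 14.2nd. The median of the members was the 88.2nd percentile, and 8 of 10 lay above the 50th.

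**Figure D3:**
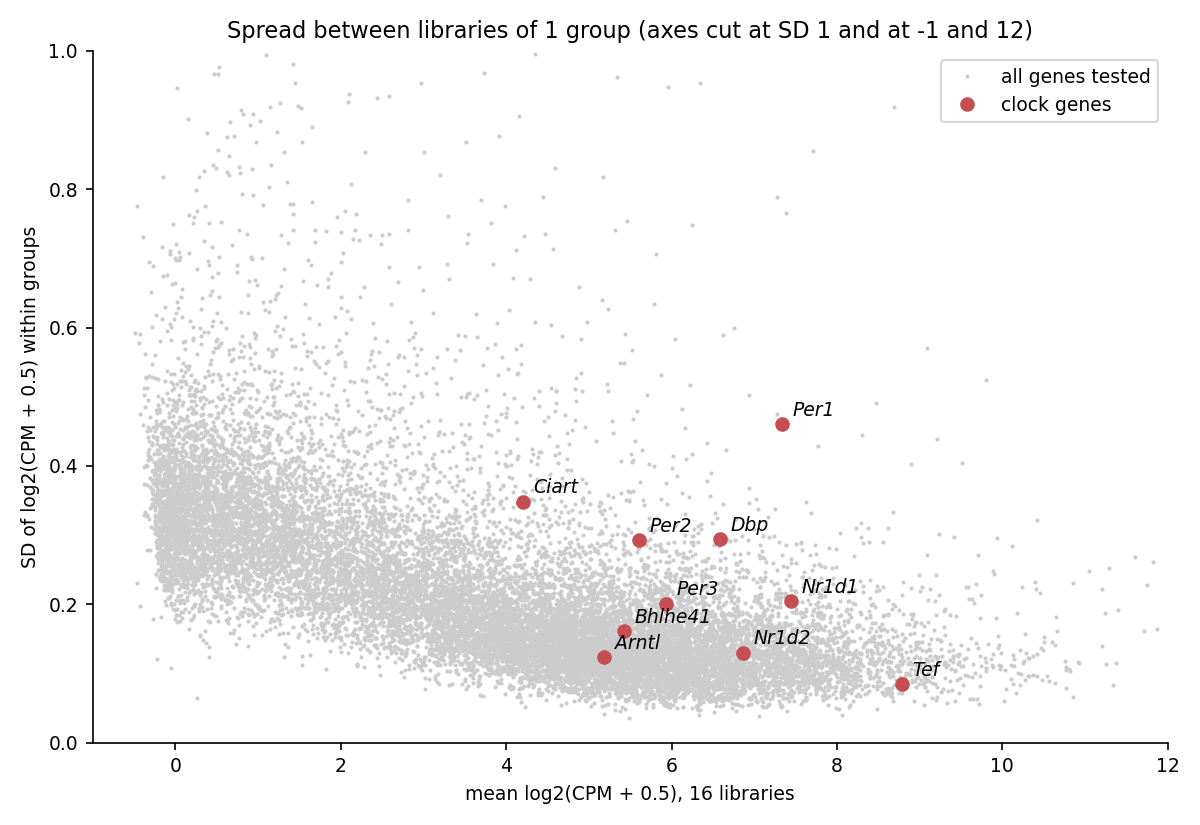
SD of log2(CPM + 0.5) between libraries of 1 group (y axis, pooled over 4 groups) against mean log2(CPM + 0.5) over 16 libraries (x axis), with all genes tested in grey and the clock genes in red. Per1 (0.46), Dbp and Per2 (0.29) lie above the bulk of genes of like level, and Tef (0.085) lies in its lower part.

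Some libraries were the highest or lowest of the 16 for more than 1 clock gene. Ch25h+/+ Tau+ replicate 4 had the highest Dbp (137 CPM), Nr1d1 (220.2 CPM) and Bhlhe41 (58.4 CPM) and the lowest Arntl (28.3 CPM) of all 16. Ch25h+/+ Tau- replicate 4 had the highest Per1 (283 CPM), Per2 (82.8 CPM) and Tef (501 CPM). Ch25h+/+ Tau+ replicate 1 had the lowest Per3 (43.7 CPM), Tef (405 CPM) and Nr1d2 (95.1 CPM). Ch25h-/- Tau- replicate 1 had the lowest Dbp (61.2 CPM) and Nr1d1 (123 CPM), while replicate 4 of that group had the highest Ciart (29.7 CPM).

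Several pairs of clock genes correlated across the 16 libraries. Of the 45 pairs, 12 correlated past an adjusted p of 0.05 (Pearson's r of log2 values, permutation test, Benjamini-Hochberg over 45), 9 positively and 3 negatively. They were 26.7% of the pairs, with r at 0.61 or more in size, a size that 7.96% of all pairs of genes tested reached (4.17% positive, 3.78% negative). The difference between these shares was not tested. The strongest pair was Dbp with Bhlhe41, at r = 0.90 and rho = 0.89 (permutation p 1e-05, the smallest that the resamples allow, and 4e-05, adjusted 0.00045 and 0.0018). Dbp with Nr1d1 had r = 0.84 and rho = 0.81 (permutation p 5e-05 and 0.00029, adjusted 0.00112 and 0.00652). Nr1d1 with Bhlhe41 had r = 0.81 and rho = 0.70 (permutation p 0.00023 and 0.00365, adjusted 0.00345 and 0.0328). Dbp, Nr1d1 and Bhlhe41 are genes that the Clock and Arntl pair switches on.

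All 3 negative pairs held Arntl. Arntl with Bhlhe41 had r = -0.71 and rho = -0.68 (permutation p 0.0021 and 0.00529, adjusted 0.0189 and 0.0397). Arntl with Dbp had r = -0.69 and rho = -0.73 (permutation p 0.00326 and 0.00168, adjusted 0.0215 and 0.025). Arntl with Ciart had r = -0.61 and rho = -0.58 (permutation p 0.013 and 0.0217, adjusted 0.0488 and 0.0886). Over all 9 pairs with Arntl 7 were negative, whereas 28 of the 36 pairs without it were positive.

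A second set joined Per2, Per3, Tef and Nr1d2. Per3 with Tef had r = 0.78 and rho = 0.72 (permutation p 0.00041 and 0.00222, adjusted 0.00461 and 0.025). Per2 with Per3 had r = 0.69 and rho = 0.59 (permutation p 0.00334 and 0.0186, adjusted 0.0215 and 0.0886), and Per3 with Nr1d2 had r = 0.67 and rho = 0.58 (permutation p 0.00424 and 0.0212, adjusted 0.0238 and 0.0886). Per2 with Tef had r = 0.66 and rho = 0.48 (permutation p 0.0052 and 0.061, adjusted 0.026 and 0.183), and Tef with Nr1d2 had r = 0.62 and rho = 0.64 (permutation p 0.00986 and 0.00897, adjusted 0.0436 and 0.0574). Dbp with Ciart had r = 0.62 and rho = 0.63 (permutation p 0.0107 and 0.0102, adjusted 0.0436 and 0.0574). Per1 stood in none of the 12 pairs, and its largest r was 0.53, with Per2 (unadjusted permutation p 0.0362, adjusted 0.113), or 0.60 with the mean of each group removed, 0.36 within the rRNA-rich and 0.73 within the other libraries.

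Leaving out the 2 libraries farthest from the median of the first gene, r was 0.84 for Dbp with Bhlhe41, 0.71 for Dbp with Nr1d1, 0.66 for Nr1d1 with Bhlhe41, 0.72 for Per3 with Tef and -0.69 for Dbp with Arntl, and the other 7 pairs kept their sign at 0.51 to 0.72 in size. Within the 7 rRNA-rich and the 9 other libraries all 12 pairs had the sign of the pooled value. Dbp with Bhlhe41 was at 0.92 and 0.91, Dbp with Nr1d1 at 0.87 and 0.81, Dbp with Arntl at -0.64 and -0.65, Arntl with Bhlhe41 at -0.47 and -0.74, and Arntl with Ciart at -0.89 and -0.35. With the mean of each group removed, 3 pairs passed, the 3 among Dbp, Nr1d1 and Bhlhe41, at r = 0.85 to 0.86 (adjusted permutation p 0.0121 to 0.0123), a size that 0.229% of all pairs of genes reached. Arntl with Dbp was then -0.42 (adjusted permutation p 0.253), and the 3 negative pairs, at -0.53 to -0.42, did not pass. Without Ch25h+/+ Tau+ replicate 4, 7 pairs passed, 0 of them negative, and 7 passed without replicate 4 of either Tau- group.

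**Figure D4:**
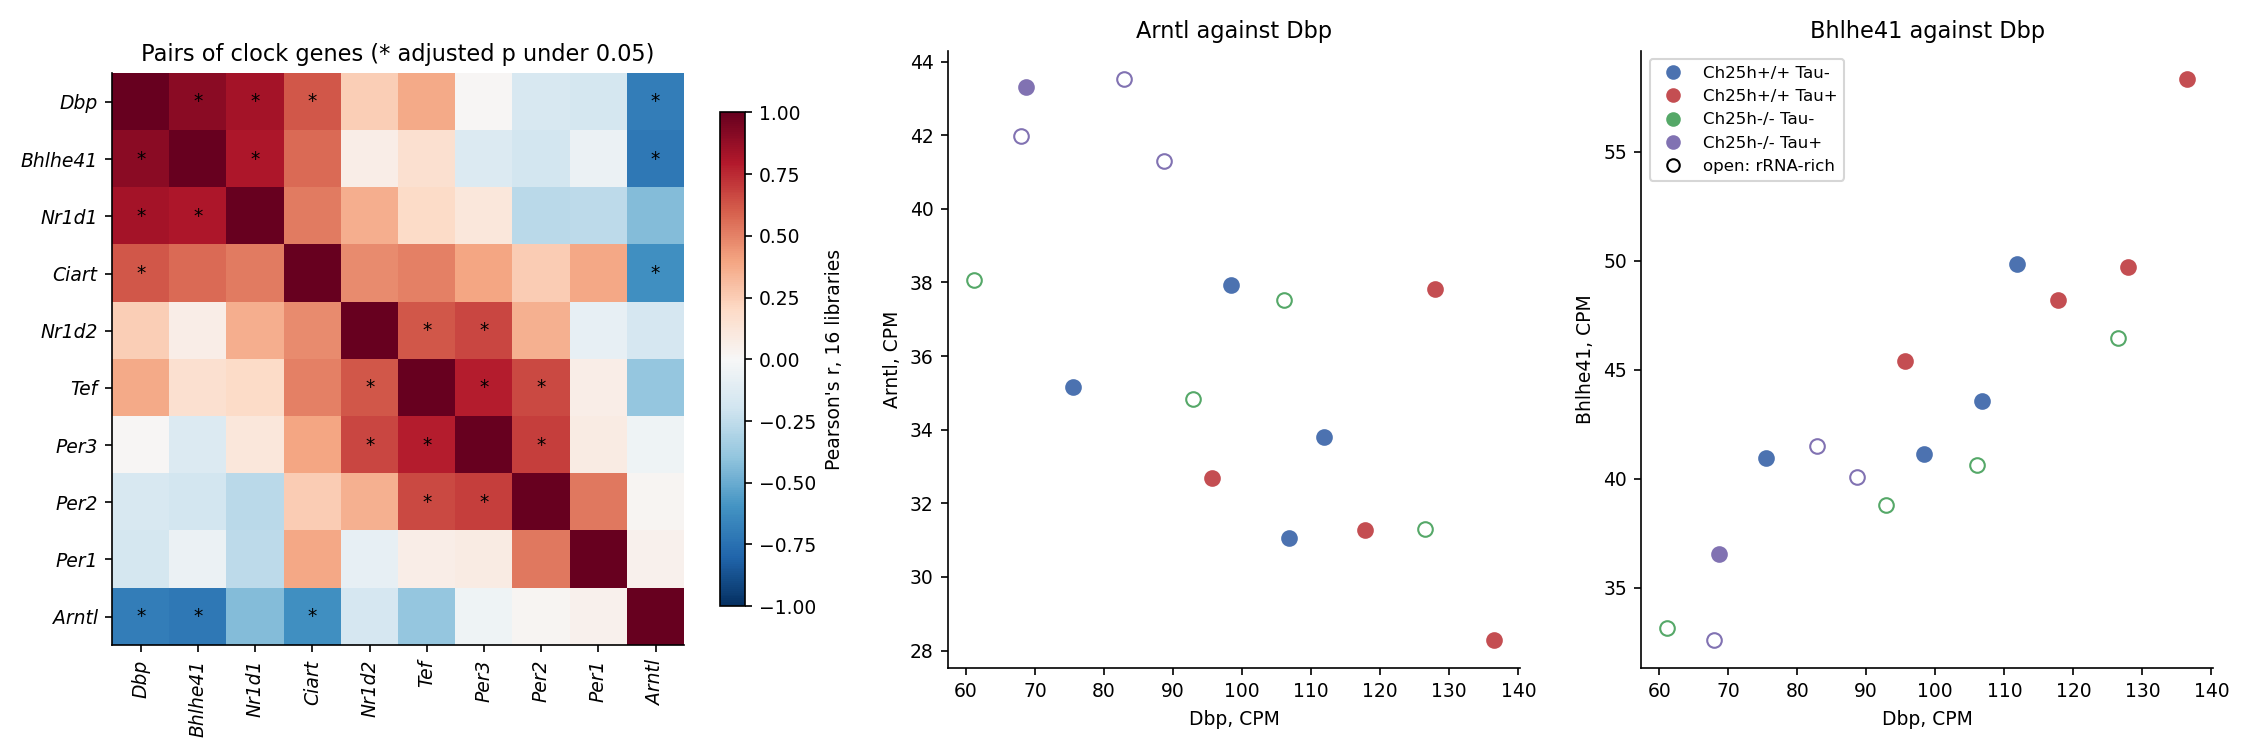
Pearson's r over 16 libraries for every pair of clock genes (left, colour, asterisks for an adjusted permutation p under 0.05), with Arntl against Dbp (middle, CPM) and Bhlhe41 against Dbp (right, CPM) by group. Bhlhe41 rises with Dbp (r = 0.90) and Arntl falls with it (r = -0.69), with the Ch25h-/- Tau+ libraries at the top left of the Arntl panel.

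Other genes of the clock, in a list of 20 that were all tested, gave 0 calls in 6 of the 7 comparisons by edgeR, with an unadjusted p under 0.05 for 2 with tau in Ch25h+/+ (9.38% of all genes), 0 with tau in Ch25h-/- (3.68%), 3 with Ch25h loss in Tau- (20.9%), 4 with Ch25h loss in Tau+ (23.9%), 1 for the interaction (4.13%) and 0 for the mean tau effect (9.85%). For the mean effect of Ch25h loss 8 of 20 had an unadjusted p under 0.05 (35.1% of all genes), and past the adjusted threshold 2 rose and 0 fell, against 9.55% and 10.8% of all genes tested. These were Clock, the partner of Arntl (log2 fold change 0.31, standard error 0.09, edgeR adjusted p 0.0212), and Arntl2, its paralog (0.36, 0.12, adjusted p 0.0439). The call of Clock held without each library in turn and was lost with GC-corrected offsets (0.13, edgeR adjusted p 0.284). That of Arntl2 held in 4 of 16 such fits, at 0.30 to 0.42, and its value was 0.22 with GC-corrected offsets (edgeR adjusted p 0.323). With the class covariate, which rests on Ch25h-/- Tau+ replicate 1, Clock was at 0.05 and Arntl2 at 0.50. Cry1, a cryptochrome that represses the loop, ranged with Ch25h present over 18.3 to 21.1 CPM in Tau- and 13.7 to 18.8 CPM in Tau+, and with it absent over 17.4 to 19.3 CPM in Tau- and 19.0 to 22.6 CPM in Tau+. Its lowest edgeR p was that of the interaction (log2 fold change 0.43, standard error 0.14, unadjusted p 0.00551, adjusted p 0.57).

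With Ch25h loss in Tau+ the log2 fold change was 0.30 for Cry1 (edgeR adjusted p 0.0882), 0.36 for Clock (0.0986), -0.02 for Cry2 (0.898), 0.08 for Npas2, which can stand in for Clock (0.543), -0.02 for Bhlhe40, the paralog of Bhlhe41 (0.927), 0.12 for Hlf, a relative of Dbp and Tef (0.426), and 0.11 for Nfil3, which competes with them for D-boxes (0.826). With tau in Ch25h+/+ Cry1 was at -0.24 and Cry2 at -0.19 (edgeR adjusted p 0.385 and 0.471), and the remaining 5 of these genes lay between -0.23 and -0.09. The paralogs Bhlhe41 and Bhlhe40 thus had different values for Ch25h loss in Tau+, though the difference between the genes was not tested.

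Glucocorticoid-responsive genes (12 tested) gave 0 calls by edgeR for either tau effect, the mean tau effect, the interaction and both single comparisons of Ch25h loss. At an unadjusted p under 0.05 there were 0 for tau in Ch25h+/+ (9.38% of all genes), tau in Ch25h-/- (3.68%), the mean tau effect (9.85%) and the interaction (4.13%). There were 2 for Ch25h loss in Tau- (20.9% of all genes), 4 in Tau+ (23.9%) and 4 for its mean effect (35.1%). For the mean effect of Ch25h loss 0 rose and 1 of 12 fell (10.8% of all genes fell), Cdkn1a, a cell cycle inhibitor (log2 fold change -0.65, standard error 0.15, edgeR adjusted p 0.0075). It was at -0.16 with the class covariate, which rests on Ch25h-/- Tau+ replicate 1. For the mean effect of Ch25h loss all 12 lay below 0 in the edgeR fit of 16 libraries (median -0.27, against 49.3% of all genes), 9 of 12 without Ch25h+/+ Tau- replicate 4 (median -0.13), and 10 of 12 with Ch25h loss in either tau state (medians -0.20 in Tau- and -0.30 in Tau+). In Tau- 6 of 12 lay below 0 without Ch25h+/+ Tau- replicate 4. Temperature-responsive genes (10 tested) gave 1 lower gene of 10 for Ch25h loss in Tau+ (2.4% of all genes). This was the cold-inducible RNA-binding protein gene Cirbp (-0.50, standard error 0.12, edgeR adjusted p 0.0315). It passed in 11 of 16 fits without 1 library and was at -0.21 with the class covariate. The temperature-responsive list gave 0 edgeR calls for tau in Ch25h+/+, tau in Ch25h-/-, the mean tau effect, Ch25h loss in Tau- and the interaction. At an unadjusted p under 0.05 there were 3 of 10 for tau in Ch25h+/+ (9.38% of all genes), 0 for tau in Ch25h-/- (3.68%) and 1 for the mean tau effect (9.85%). There were 3 for Ch25h loss in Tau- (20.9%), 3 in Tau+ (23.9%), 4 for its mean effect (35.1%) and 1 for the interaction (4.13%). For the mean effect of Ch25h loss 2 of 10 fell (10.8% of all genes) and 0 rose. These were Cirbp (-0.39, standard error 0.08, edgeR adjusted p 0.00592) and the heat shock gene Hspa1a (-0.41, 0.13, adjusted p 0.0409). With the class covariate Cirbp was at -0.05 and Hspa1a at 0.13. Hspa1a passed in 7 of 16 fits without 1 library.

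Immediate early genes (12 tested) gave 0 edgeR calls in all 7 comparisons, with at most 2 at an unadjusted p under 0.05 (for tau in Ch25h-/-, 3.68% of all genes). All 12 lay below 0 for tau in both genotypes, with medians of -0.41 (log2) where Ch25h was present and -0.56 where it was absent, where 52.2% and 47.2% of all genes lay below 0. Without Ch25h+/+ Tau- replicate 1 the first of these became 7 of 12 (median -0.04), and limma-voom with quality weights gave 8 of 12. The second was at 10 to 12 of 12 without 1 library. With Ch25h loss 11 of 12 lay below 0 in Tau- (median -0.27) and 11 in Tau+ (median -0.36), against 48.6% and 49.3% of all genes. In Tau- this became 4 of 12 without Ch25h+/+ Tau- replicate 1 and 5 of 12 without Ch25h-/- Tau- replicate 3 (medians 0.08 and 0.05), and in Tau+ 6 of 12 without Ch25h+/+ Tau+ replicate 2 and 7 of 12 without Ch25h-/- Tau+ replicate 2. With the class covariate 1 and 2 of 12 lay below 0, in a fit whose class term rests on Ch25h-/- Tau+ replicate 1 alone. The comparisons share libraries, and these counts are a description. By the smallest p in the mean tau effect the list was led by Btg2 (-0.69, standard error 0.32, edgeR adjusted p 0.494), Fosb (-0.50, 0.25, 0.551) and Npas4 (-0.44, 0.25, 0.624).

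Per1 was also set beside the immediate early genes from library to library. These relations were computed after seeing the data, as 48 pairs of Per1 or Per2 with 24 genes. Per1 correlated with 10 of 12 immediate early genes past an adjusted permutation p of 0.05, all positively and at r = 0.70 or more, which 0.445% of all genes tested reached with Per1. The highest was Egr2 (r = 0.86, rho = 0.89, permutation p 3e-05 and 2e-05, adjusted 0.00072 and 0.00048), followed by Nr4a1 (r = 0.85, rho = 0.86, permutation p 2e-05 and 4e-05, adjusted 0.00072 and 0.0006) and Arc (r = 0.84, rho = 0.85, permutation p 7e-05 and 5e-05, adjusted 0.00112 and 0.0006). Without the 2 libraries farthest from the median of Per1 these were 0.93, 0.92 and 0.88. They were 0.92, 0.91 and 0.88 within the rRNA-rich libraries and 0.87, 0.86 and 0.86 within the others, and 10 of 12 also passed with the mean of each group removed, at r = 0.74 or more (0.547% of all genes).

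The other 2 of the 12, Npas4 and Btg2, had r = 0.53 and 0.60 (adjusted permutation p 0.0984 and 0.053). Of the glucocorticoid-responsive genes 3 of 12 passed with Per1, at a size that 1.01% of all genes reached. These were Cdkn1a (r = 0.64, rho = 0.62, permutation p 0.00762 and 0.0111, adjusted 0.0305 and 0.0443), Tsc22d3 (r = 0.64, rho = 0.56, permutation p 0.00584 and 0.0254, adjusted 0.0255 and 0.0812) and Errfi1 (r = 0.62, rho = 0.71, permutation p 0.0102 and 0.00258, adjusted 0.0376 and 0.0113). Without the 2 farthest libraries Cdkn1a was at 0.55, Tsc22d3 at 0.44 and Errfi1 at 0.54. With the mean of each group removed 2 of 12 passed (1.35% of all genes reached their r), and Tsc22d3 did not (adjusted permutation p 0.117). Per2 passed with 0 of the 24 genes, at r = -0.04 to 0.50 with immediate early genes and 0.06 to 0.57 with glucocorticoid-responsive genes. With the mean of each group removed Per2 passed with 0 of 12 immediate early genes and 2 of 12 glucocorticoid-responsive genes, Fkbp5 (r = 0.80, adjusted permutation p 0.00829) and Tsc22d3 (r = 0.78, adjusted 0.00988), a size that 0.0733% of all genes reached. Within the 9 rRNA-poor libraries its r with immediate early genes was 0.14 (Npas4) to 0.85 (Fosb), and within the rRNA-rich ones -0.02 (Egr1) to 0.22 (Btg2). The difference between Per1 and Per2 was not tested.

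**Figure D5:**
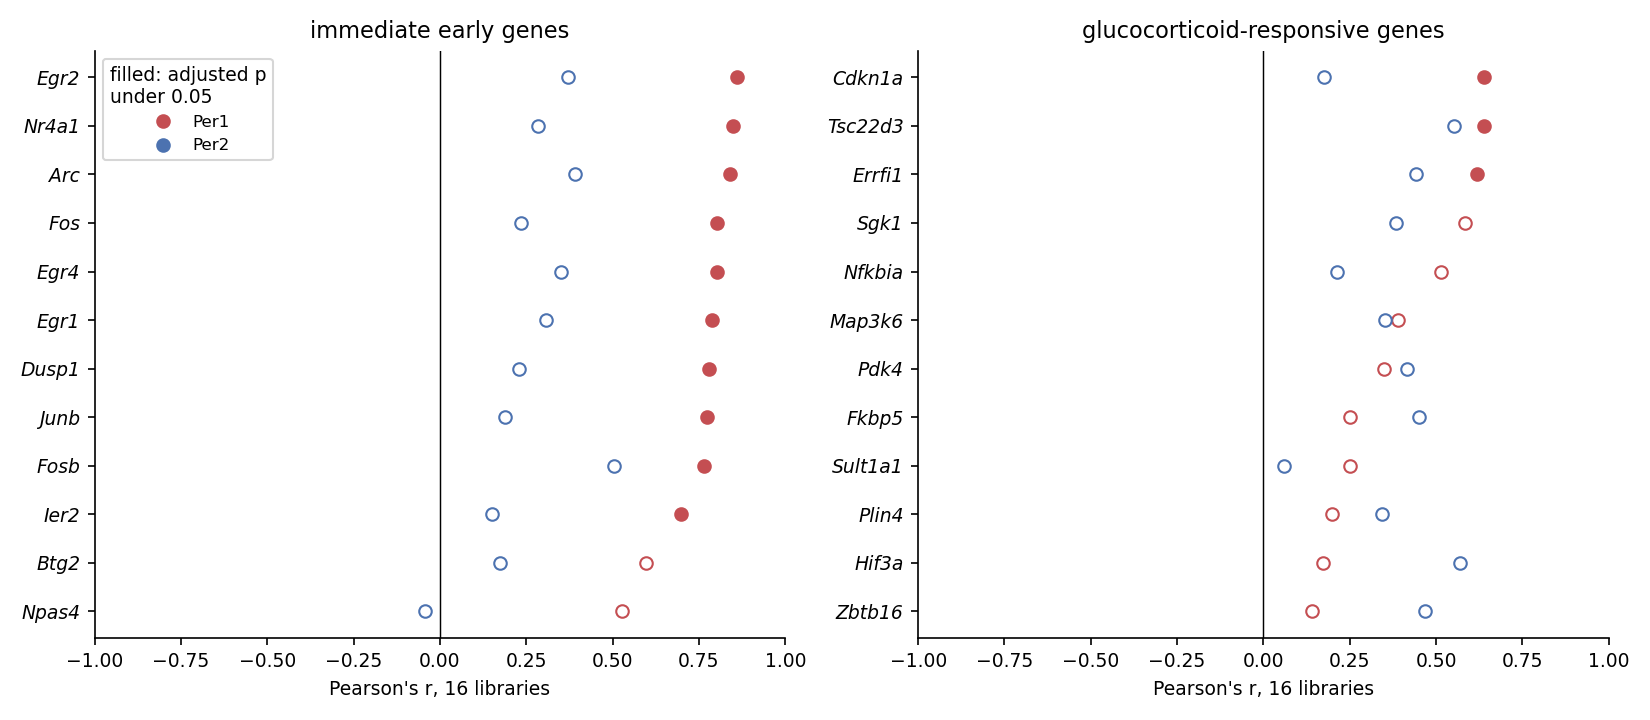
Pearson's r over 16 libraries (x axis) of Per1 (red) and Per2 (blue) with each immediate early gene (left) and glucocorticoid-responsive gene (right), filled where the adjusted permutation p is under 0.05. Per1 lies at 0.53 to 0.86 with the immediate early genes and Per2 at -0.04 to 0.50.

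The genes most like Dbp, by Pearson's r over 16 libraries with the mean of each group removed among 14471 genes at a mean of 1 log2 CPM or more, were Echs1 (r = 0.93), Slc35f3 (0.89), Trmt5 (0.87), Cnot9 (0.87) and Hrh3 (0.87). With the group means kept, r was 0.79, 0.70, 0.62, 0.42 and 0.86. For Arntl they were Dnajc19 (0.88), Ccdc136 (0.83), Herc4 (0.82), Ift122 (0.82) and Gm14703 (0.81), and with group means kept 0.43, 0.62, 0.73, 0.53 and 0.45. For Per1, added after seeing the data, they were Stk40 (0.96), Midn (0.95), Fosl2 (0.93), Kdm6b (0.93) and Map3k14 (0.93), at 0.88 to 0.92 with group means kept. The genes named for Dbp and Arntl include 0 clock genes of the lists above.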

How the data were processed

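RNA of 16 libraries was sequenced, with a column kit for RNA and a SMARTer mRNA kit for libraries per the labels' protocols. The authors deposited raw counts per gene, unnormalized, and the submitters' processing notes name STAR 2.7 and GRCm38 (mm10). The counting program and the use of strand are not given in the sources used here. The 10 genes and all lists were chosen with earlier results of these data known.

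Counts (15530352 to 25602500 per library, so at 207 or more for each clock gene) were tested with edgeR 4.0.16 in R 4.3.3 (quasi-likelihood, two-sided, TMM, filterByExpr, 1 fit of 16 libraries with a mean per group, Benjamini-Hochberg over 17736 genes). CPM were computed on TMM-scaled library sizes. Correlations used log2(CPM + 0.5) and 100000 resamples, two-sided, and within library classes exact permutation. The library class was rRNA-rich above 1000 CPM of CT010467.1. Positions, lengths and GC content came from GENCODE M21 by symbol (all 10 genes matched) and promoters from RefSeq. Scripts were tested on simulated data.

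Named are the 10 genes, 7 other clock genes and any past the threshold, up to 3 genes of each further list by p in the mean tau effect or past the threshold, Ciart's 3 neighbours on each side, and the 5 genes most like Dbp and Arntl. Ctss, the genes compared with Per1 and the overlapping genes were chosen after their values were seen.

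Alternatives were relative log expression factors, no filter, DESeq2 1.42.0, only genes averaging 50 counts or more, limma-voom (limma 3.58.1) with quality weights, a covariate for library class, GC-corrected offsets (loess, span 0.5), only the 8 libraries compared, CPM on total counts, a pseudocount of 2, Spearman's rho, group means removed, each library class alone and leaving out each library. Ranking among genes of like mean, the shares of all genes or pairs that reach an r, the counts below 0 of 2 lists under each alternative, and the relations of Per1 and Per2 with other lists were added after seeing the data.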

Additional observations from a re-analysis of the deposited data

Results flagged for a closer look

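Among 40 sets of 4 values (10 genes in 4 groups), 2 held a library far from the other 3, and chance alone gives about 1 in 20, or 2 of 40. Per3 was at 78.6 CPM in Ch25h+/+ Tau- replicate 4, where the other 3 libraries of the group were at 58.1 to 59.8 CPM. Nr1d1 was at 123 CPM in Ch25h-/- Tau- replicate 1, where the other 3 were at 186 to 190.4 CPM.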

How the results depend on the processing

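No paired analysis was possible because the labels give no replicate numbers that groups share. Of 1650 log2 fold changes of single members under alternatives, 1600 kept their side of the threshold, 32 lost and 18 gained a call, and 0 changed sign after a call. Of the 1600, 78 changed sign, all with both values short of the threshold. The fit with the class covariate rests on Ch25h-/- Tau+ replicate 1 for class, so a call lost there is no test of class. For Ch25h loss in Tau+, the 2 calls became 0 with GC-corrected offsets and 1 with only the 8 libraries compared, where both were lost and Dbp was gained. They became 3 (with Dbp) with DESeq2, limma-voom, relative log expression factors, no filter or a mean of at least 50 counts. Leaving out 1 library gave 0 to 3, with 0 without Ch25h+/+ Tau+ replicate 4 or Ch25h-/- Tau+ replicate 2, 3 or 4. For the mean effect of Ch25h loss the 2 calls became 1 (Bhlhe41) with GC-corrected offsets, 3 (with Dbp) with DESeq2, and 1 to 3 without 1 library, and with no filter Arntl was lost and Dbp gained. For tau in Ch25h+/+ and for the mean tau effect the 0 calls became 1 (Per2) with no filter and 1 with DESeq2. The 12 correlated pairs became 3 with group means removed, 6 with Spearman's rho, 2 in the rRNA-rich and 1 in the other libraries, where fewer libraries enter, and 7 to 12 without 1 library. The median spread percentile of 54.2 became 78.7 with a pseudocount of 2 and 88.2 among genes of like mean, and 41.6 to 59.0 without 1 library. The cause of these changes was not tested. Over all genes, calls ranged from 159 to 498 for tau in Ch25h+/+ (277), 2 to 28 in Ch25h-/- (7), 0 to 1388 for Ch25h loss in Tau- (182), 10 to 1883 in Tau+ (629), 0 to 57 for the interaction (6), 110 to 319 for the mean tau effect (152) and 0 to 4557 for the mean effect of Ch25h loss (3603), with each low value of Ch25h loss from the class covariate. Of 1815 values of 11 other named genes, 1760 kept their side of the threshold (88 of them with another sign, past the threshold in neither setting), 36 lost and 18 gained a call, and 1 changed sign, Hspa1a for the mean effect of Ch25h loss, at 0.13 with the class covariate. Each clock gene had at least 207 counts in a library, and 4 libraries a group limit the precision.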
